A study of Mus musculus and Homo sapiens with 42 samples.

Results

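K562 cells carrying doxycycline-inducible short hairpin RNAs (shRNAs) against CHD9 were profiled by RNA-seq with 2 hairpins, shRNA-CHD9#1 (hairpin 1) and shRNA-CHD9#2 (hairpin 2), and genes that differed between the hairpins were compared at a similar depletion of CHD9. The comparison rests on 4 of the 42 libraries of the study, 2 with hairpin 1 and 2 with hairpin 2. The 2 K562 libraries with a hairpin against luciferase (shRNA-Luc, here shLuc) were used as a reference level and to estimate the spread. K562 is an established line of chronic myelogenous leukemia with an erythroid character, and all 6 libraries came from cells treated with 1 µg/ml doxycycline for 48 hours, so the shLuc cells carry the drug and a hairpin as well. Both CHD9 hairpins and the luciferase hairpin were also expressed in the glioblastoma line SNB19. Those 6 libraries came from cells treated with 1 µg/ml doxycycline for 48 hours as well, and were used as a second set of samples. The labels do not say whether a hairpin line is 1 clone or a pool, or whether the 2 libraries of a group came from separate cultures, so p-values measure the spread between these libraries, which may be technical. No library of cells without doxycycline was used here, so differences that were present between the hairpin lines before induction cannot be told apart from induced ones.

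A short hairpin RNA is cut by Dicer into a short duplex, and the guide strand of that duplex is loaded into an Argonaute protein and pairs with the target transcript. Full pairing leads to cleavage of the target, whereas pairing of the bases near the 5′ end of the guide, the seed, with a 3′UTR can lower other transcripts in the way of a microRNA. Hairpins of different sequence against the same gene therefore share the intended target and differ in their seeds. CHD9 is a chromatin remodeler of the chromodomain helicase DNA-binding family, and its loss is the common part of both hairpins.

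The sites that the hairpins target in CHD9 are shown because their letters are compared with 3′UTRs further on. Both lie in coding sequence on the plus strand of chromosome 16 (GRCh38, GENCODE v29), that of hairpin 1 in exon 29 of 39 at chr16:53292912-53292932 and that of hairpin 2 in exon 22 at chr16:53268005-53268025. Each is 21 bases long and is written 5′ to 3′ in the sense of the transcript. Capitals mark positions 14 to 20, which pair with bases 2 to 8 of a guide that starts opposite the last base of the site.
Hairpin 1: tgcataccagcgtACTAATAa
Hairpin 2: ccgagctctcttaGCATATTg

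The libraries held between 8109941 and 9033846 counts, and 9171 genes had enough counts to be tested. The K562 markers HBE1, HBG1, HBG2 and EPOR were present in every K562 library, with a summed level of 1849 to 2237 CPM against 16.5 to 22.3 in SNB19. CPM are counts scaled to a common library size. The table lists 48.9% of the protein-coding genes of GENCODE v29, and the others were not analysed here. Replicate libraries of a hairpin were close: the variance between them was 1.28 times the counting variance for hairpin 1 and 1.93 times for hairpin 2. The shLuc libraries differed by more, 7.95 times the counting variance. The median absolute log2 difference was 0.0864 between the hairpin 1 libraries and 0.0996 between the hairpin 2 libraries, against 0.239 between the hairpin groups.

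CHD9 was lowered to nearly the same level by both hairpins. Its level, in CPM scaled with the TMM factors of edgeR, was 146 and 139 in the hairpin 1 libraries, 150 and 152 in the hairpin 2 libraries, and 329 and 243 in the shLuc libraries. All hairpin libraries lay below both shLuc libraries, and hairpin 1 lay just below hairpin 2. The log2 fold change between the hairpins was -0.09 (SE 0.11, 95% interval -0.32 to 0.15, adjusted p = 0.602 by edgeR's quasi-likelihood test), and the interval leaves room for a small difference. Against shLuc the log2 fold change was -1.01 with hairpin 1 (adjusted p = 1.33e-06) and -0.92 with hairpin 2 (adjusted p = 6.26e-06). The spread of the shLuc pair bears on these values: without shLuc replicate 1 the hairpin 1 value was -0.77, without hairpin 1 replicate 2 it was -0.96, and without shLuc replicate 2 the hairpin 2 value was -1.12. The other listed members of the family, CHD1, CHD2, CHD5 and CHD6, also encode chromatin remodelers. CHD1, CHD2 and CHD6 differed between the hairpins by log2 values of 0.22, -0.06 and -0.26, none past the threshold. CHD5 passed it at 1.22 (adjusted p = 0.0135) but was rare, with 22 and 26 counts in the hairpin 1 libraries and 13 and 9 in the hairpin 2 libraries, and the call was lost on leaving out any hairpin library and under DESeq2.

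With CHD9 at these levels, 221 genes were higher with hairpin 1 and 148 were higher with hairpin 2, at an adjusted p under 0.05 and a change over 2-fold. These are 2.41% and 1.61% of the genes tested. The larger changes were on the hairpin 1 side, where 57 genes differed by over 4-fold against 10 on the hairpin 2 side. All 369 called genes had hairpin libraries that do not overlap, but so had 70.4% of all tested genes. At the adjusted p alone, 1398 genes (15.2%) were higher with hairpin 1 and 1347 (14.7%) with hairpin 2. DESeq2's Wald test called fewer, 112 and 68, and without hairpin 1 replicate 1 or hairpin 2 replicate 1 the genes higher with hairpin 2 numbered 88 or 92.

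**Figure D1:**
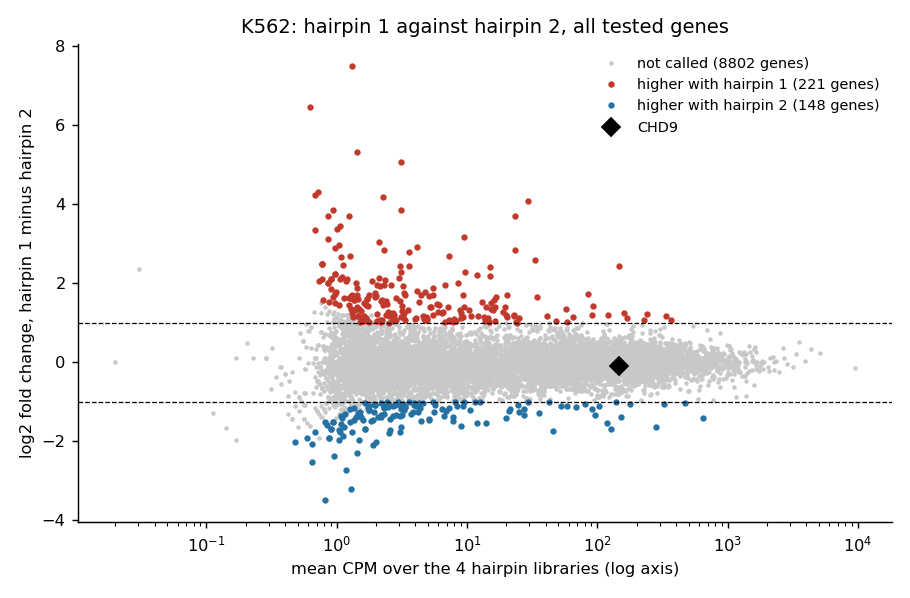
Each point is a tested gene, with its mean CPM over the 4 hairpin libraries on a log axis and its log2 fold change (hairpin 1 minus hairpin 2) on the vertical axis, and dashed lines mark 1 and -1. The 221 genes higher with hairpin 1 (red) reach farther from 0 than the 148 higher with hairpin 2 (blue), and CHD9 (diamond) lies close to 0.

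The kinds of transcript differed between the directions. Of the genes higher with hairpin 1, 170 were protein-coding by GENCODE v29, 22 were lincRNAs and 7 were antisense transcripts. Of those higher with hairpin 2, 63 were protein-coding, 23 were lincRNAs, 28 were antisense transcripts and 9 were processed pseudogenes, of which none was higher with hairpin 1. Among all tested genes, 6577 were protein-coding, 565 lincRNA, 683 antisense and 255 processed pseudogenes. Whether strand was used in counting is not given in the sources used here, so reads of an antisense transcript and of the gene it overlaps cannot be told apart.

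The 12 genes with the smallest p-values that were higher with hairpin 1 are given first. THBS1, which encodes the matrix glycoprotein thrombospondin-1, stood at 55.2 and 56.3 CPM with hairpin 1, 3.13 and 3.39 with hairpin 2, and 4.25 and 4.41 in shLuc. Only the hairpin 1 libraries were high, and the log2 difference was 4.09 (SE 0.14, adjusted p = 4.28e-11). TRPV6, an epithelial calcium channel, had 38.6 and 48.4 CPM with hairpin 1 against 3.13 and 3.50 with hairpin 2, a log2 difference of 3.71. MME, the membrane metalloendopeptidase neprilysin, had 42.5 and 39.5 CPM with hairpin 1 and 5.70 and 5.69 with hairpin 2, and was nearly silent in shLuc at 0.805 and 0.477. For MME both hairpins were thus above shLuc, hairpin 1 by a log2 value of 5.96 and hairpin 2 by 3.12. The same order, shLuc lowest and hairpin 1 highest, held for AQP3, a water and glycerol channel, and for CD44, the hyaluronan receptor. AQP3 rose from 22.1 and 23.7 CPM in shLuc to 37.0 and 42.2 with hairpin 2 and 134 and 127 with hairpin 1. CD44 had 62.6 and 62.3, then 232 and 240, then 485 and 508 CPM.

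SP6, HEY1, NAB2 and PHLDA1 were also among these 12. SP6, a zinc finger factor of the Sp family, had the smallest p-value together with THBS1, with 247 and 252 CPM with hairpin 1, 44.6 and 46.8 with hairpin 2 and 28.9 and 29.9 in shLuc (log2 difference between hairpins 2.45, SE 0.08). HEY1, a repressor downstream of Notch, had 167 and 170 CPM with hairpin 1, 73.7 and 73.9 with hairpin 2 and 12.4 and 15.3 in shLuc. NAB2, a corepressor of EGR factors, differed by a log2 value of 1.25, and PHLDA1, induced by growth factor signaling, by 1.43. All of these had both shLuc libraries below every hairpin library.

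The remaining genes of the 12 had another order. RDX, encoding radixin, which links actin to the plasma membrane, stood at 339 and 331 CPM with hairpin 1 and 337 and 309 in shLuc, against 148 and 141 with hairpin 2. Here hairpin 1 was at the shLuc level and hairpin 2 was lower (log2 value against shLuc -1.16, adjusted p = 9.02e-09). SNX17, a sorting nexin, and MAGEA3, a cancer-testis antigen, had shLuc between the hairpins, with log2 differences between hairpins of 1.13 and 1.35. MAGEA3 has near-identical paralogs, so its counts are uncertain.

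The 12 genes with the smallest p-values that were higher with hairpin 2 differed in where shLuc stood. TMEM123, which encodes the membrane protein porimin, had 145 and 131 CPM with hairpin 1, 427 and 429 with hairpin 2, and 513 and 477 in shLuc (log2 difference between hairpins -1.63, SE 0.08, adjusted p = 2.56e-09). CCNG1, encoding cyclin G1, a target of p53, had 342 and 360 CPM with hairpin 1, 980 and 880 with hairpin 2, and 917 and 959 in shLuc. TFG, a protein of endoplasmic reticulum export, had 86.9 and 81.7 CPM with hairpin 1, 230 and 213 with hairpin 2, and 235 and 245 in shLuc. CCNG1 and TFG with hairpin 2 did not pass the test against shLuc (log2 values -0.01 and -0.12), and TMEM123 was below it by a log2 value of -0.21 (adjusted p = 0.0329).

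TMEM135, ATG16L2 and AKNA were low with hairpin 1 as well, with log2 differences between the hairpins of -1.68, -1.18 and -1.07 and hairpin 2 values against shLuc of -0.04, 0.03 and -0.03. So did CASC4, with 62.9 and 66.9 CPM with hairpin 1, 140 and 139 with hairpin 2, and 129 and 140 in shLuc. RTN3, a reticulon of the endoplasmic reticulum, had 311 and 304 CPM with hairpin 1, 625 and 631 with hairpin 2, and 740 and 775 in shLuc. SERPINF1, the secreted pigment epithelium-derived factor, was graded, with 54.0 and 53.9 CPM with hairpin 1, 136 and 138 with hairpin 2, and 310 and 337 in shLuc. NEK7, a mitotic kinase, had shLuc between the hairpins, at 126 and 124 CPM. The NEK7 difference lay at the 2-fold limit, with a log2 value of -0.99 by DESeq2 and -0.94 without hairpin 2 replicate 1. Its call was lost in these and in other settings. For TRANK1 and the lysosomal protease CTSS both hairpins lay above shLuc. TRANK1 had 24.7 and 21.5 CPM in shLuc, 59.7 and 61.7 with hairpin 1 and 183 and 167 with hairpin 2.

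**Figure D2:**
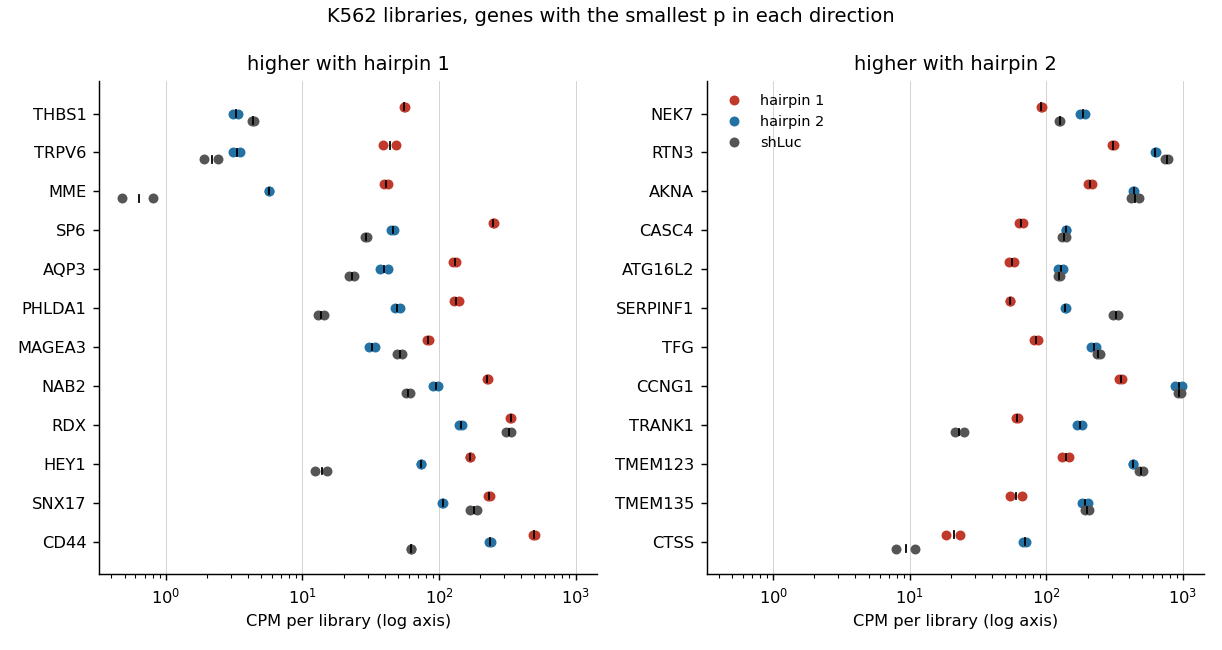
CPM per library on a log axis for the 12 genes per direction that had the lowest p-values, with 2 points per group (hairpin 1 red, hairpin 2 blue, shLuc grey) and a black tick at each mean. On the left hairpin 1 lies to the right of hairpin 2, with shLuc lowest for MME, SP6, AQP3, PHLDA1, NAB2, HEY1, TRPV6 and CD44. On the right shLuc lies beside hairpin 2 for TFG, CCNG1, TMEM135, CASC4, ATG16L2 and AKNA.

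By fold change, THBS1 was among the 5 largest differences on the hairpin 1 side, and the others were in rare transcripts. CES1, a carboxylesterase, had 48 and 53 counts with hairpin 1 and 1 and 2 with hairpin 2 and none in shLuc. IGFN1 had 23 and 24 counts with hairpin 1 and 1 and 0 with hairpin 2, a ratio of 50.3 (exact 95% interval 8.60 to 2029, which covers counting error alone). DMBT1 had 26 and 18 counts with hairpin 1 and none in the other K562 libraries, and was at least 7.85-fold higher at a floor of 3 counts per library. IGFBP5, a secreted binder of insulin-like growth factors, had 53 and 45 counts with hairpin 1, 3 and 4 with hairpin 2, and 26 and 22 in shLuc. In the other direction CSGALNACT1, an enzyme of chondroitin sulfate synthesis, had 1 and 3 counts with hairpin 1, 22 and 20 with hairpin 2, and 105 and 76 in shLuc. The lincRNA LINC02212, the antisense transcript AC131097.1 and the processed pseudogenes AL591767.3 and AC138409.1 followed, with log2 values of -2.72, -2.28, -2.03 and -2.09. DESeq2 did not call DMBT1, IGFN1, LINC02212 or AC131097.1, and AC138409.1 was lost without hairpin 2 replicate 1.

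The place of shLuc was then counted over all called genes. Of the 221 genes higher with hairpin 1, 113 (51.1%) had both shLuc libraries below all hairpin libraries, 23 had them between the hairpins and 12 above. Among all tested genes 28.2% had shLuc below, 4.47% between and 26.1% above. The median log2 value against shLuc of these 221 genes was 2.19 with hairpin 1 and 0.54 with hairpin 2. Of the 148 genes higher with hairpin 2, 60 (40.5%) had both shLuc libraries above all hairpin libraries and 11 below, and the median value against shLuc was -1.33 with hairpin 1 and -0.06 with hairpin 2. In both directions the median was farther from 0 with hairpin 1. Over all tested genes hairpin 1 had 1092 genes called higher (11.9%) and 641 lower (6.99%) than shLuc, and hairpin 2 had 872 (9.51%) and 280 (3.05%). Both folds share the shLuc libraries.

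**Figure D3:**
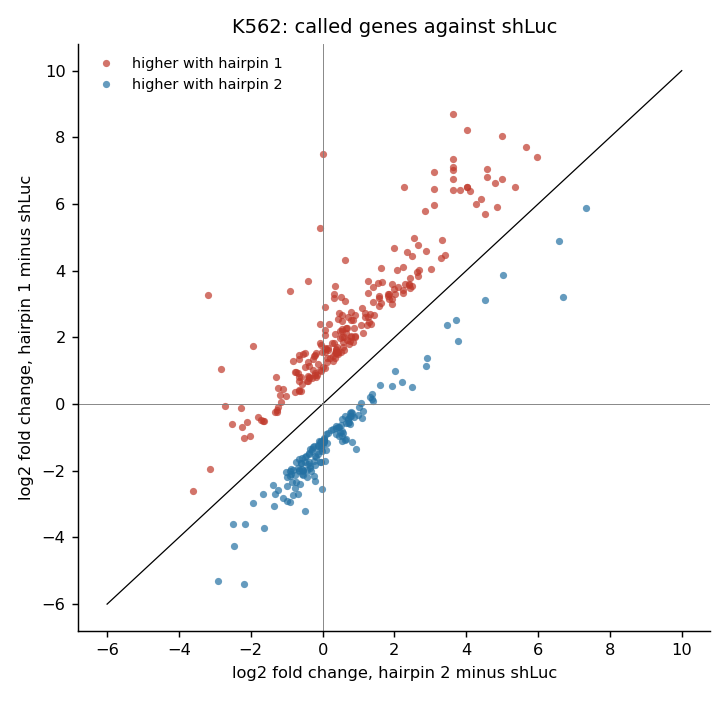
Log2 fold change against shLuc with hairpin 2 (horizontal) and hairpin 1 (vertical) for the 369 genes called between the hairpins, with the line of equality in black. Red points are the 221 genes higher with hairpin 1 and blue points the 148 higher with hairpin 2. The blue points center near 0 on the horizontal axis, and most of them lie below 0 on the vertical axis, but not all. Most red points lie above 0 on the vertical axis.

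APLNR and BIN1, which the study names for K562, did not pass the test between the hairpins. APLNR, the apelin receptor, had 16.9 and 16.8 CPM with hairpin 1 and 16.8 and 20.4 with hairpin 2, against 84.6 and 89.6 in shLuc, and its log2 difference of -0.14 turned to 0.006 without hairpin 2 replicate 2. BIN1, an adaptor of membrane curvature, had 5.70 and 5.97 CPM with hairpin 1 and 4.92 and 5.14 with hairpin 2, against 59.6 and 71.6 in shLuc (log2 difference between hairpins 0.21, 95% interval -0.24 to 0.67). The adjusted p-values between the hairpins were 0.436 for APLNR and 0.491 for BIN1.

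In the list of immediate early genes and feedback inhibitors of ERK signaling, 4 of 14 tested members were called higher with hairpin 1 (PHLDA1, NR4A1, FOSB and EGR2), beside 2.41% of all tested genes. At an adjusted p under 0.05, 11 of 14 were higher with hairpin 1, beside 15.2% of all tested genes, and none was lower. The median log2 difference of the list was 0.76, beside -0.01 for all tested genes. NR4A1, an orphan nuclear receptor, had 54.2 and 58.8 CPM with hairpin 1, 24.7 and 25.5 with hairpin 2 and 20.4 and 19.1 in shLuc. EGR2, a zinc finger factor, had 31 and 37 counts with hairpin 1, 4 and 6 with hairpin 2 and 7 and 2 in shLuc, and was not called by DESeq2. FOSB, an AP-1 subunit, had 17.8 and 19.1 CPM with hairpin 1 and 8.05 and 9.95 with hairpin 2, and lost its call without hairpin 1 replicate 2 or hairpin 2 replicate 1. JUN, DUSP5, IER3 and SPRY4, named after their values were seen, had log2 differences of 0.72, 0.84, 0.82 and 0.81, below the 2-fold limit.

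Adhesion and lineage genes moved singly. For the counts below, 2.41% of all tested genes were called higher with hairpin 1 and 1.61% higher with hairpin 2. Of 9 integrin genes, ITGB3 (29.8 and 26.5 CPM with hairpin 1, 11.9 and 9.62 with hairpin 2, 4.25 and 2.98 in shLuc) and ITGA3 (log2 difference 1.68) were called higher with hairpin 1, and the list's median was -0.10. Of 10 megakaryocyte genes only ITGB3 and THBS1 were called, and the median was -0.001. Of 26 erythroid genes CA1, a carbonic anhydrase, was called higher with hairpin 1 (log2 difference 1.33) and TMCC2 higher with hairpin 2 (-1.19), with a median of 0.06. Of 7 myeloid genes, whose median was -0.57, PRTN3, the neutrophil proteinase 3, was higher with hairpin 2, at 15 and 20 counts with hairpin 1 and 42 and 41 with hairpin 2, and lost its call without replicate 1 of either hairpin.

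Interferon, stress response and mitochondrial genes held no called gene, in lists of 20, 12 and 15 tested members. Over all tested genes 2.41% were called higher with hairpin 1 and 1.61% higher with hairpin 2, so no call in lists this small is near that share. In the interferon list 7 of 20 members were higher with hairpin 1 at an adjusted p under 0.05 and 1 lower, beside 15.2% and 14.7% of all tested genes, with a median log2 difference of 0.30. The smallest p-values belonged to PARP14 (0.42) and DTX3L (0.46). In the list of the integrated stress and unfolded protein response 5 of 12 were lower with hairpin 1 at that adjusted p and none higher, beside 14.7% and 15.2% of all tested genes, with a median of -0.21, and SLC7A11, the cystine transporter, came nearest to a call at -0.96. The mitochondrially encoded genes had a median of 0.17, with 5 of 15 higher with hairpin 1 at that adjusted p, beside 15.2% of all tested genes, led by the ribosomal RNAs MT-RNR1 (0.37) and MT-RNR2 (0.35). Their summed level was 27313 to 28121 CPM with hairpin 1, 23541 to 24242 with hairpin 2 and 26234 to 27576 in shLuc.

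Of the RNA interference machinery, 1 of 6 genes passed the adjusted p, AGO4 at -0.58, beside 14.7% of all tested genes lower with hairpin 1. AGO3 was at -0.20 (adjusted p = 0.136), and the list median was 0.01. PRC1 and PRC2 subunits had medians of -0.08 and -0.07, with PHC2 at 0.63 and RYBP at -0.35 in PRC1 and AEBP2 at -0.26 and EZH2 at 0.07 in PRC2. The medians were -0.05 for cholesterol genes (STARD4 -0.55), 0.0004 for the hypoxia list (BHLHE40 0.50, PFKFB4 -0.58) and 0.05 for the cell cycle list (CDKN1A 0.67, CDT1 -0.43). They were 0.01 for oxidative phosphorylation (NDUFB5 -0.61, NDUFS4 -0.44) and 0.01 for ribosomal proteins (RPS26 0.43, RPL36A 0.25), and the K562 markers had a median of -0.07 (HBE1 0.26, HBG2 -0.30).

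Genes that mark SNB19 and other mesenchymal cells were measured in the same libraries because 2 of 8 tested members were called higher with hairpin 1. The share of all tested genes was 2.41%. CD44, given above, was among the called members. At the adjusted p alone 3 of the 8 were higher with hairpin 1 and 3 lower, beside 15.2% and 14.7% of all tested genes. The summed level of the 11 listed markers was 3303 to 3533 CPM with hairpin 1, 3011 to 3348 with hairpin 2 and 2810 to 2970 in shLuc, against 16716 to 20482 in SNB19, and no marker was at 0 in all K562 libraries. The median of the list was 0.001. VIM and COL6A3, which were chosen outside the rules for named genes, differed by 0.04 and -0.04. COL6A3, a collagen chain, was high with both hairpins, at 134 and 143 CPM with hairpin 1 and 136 and 147 with hairpin 2, against 12.5 and 12.2 in shLuc. The part of other cells in these values was not tested.

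The same hairpins in SNB19 gave libraries that were not used to call the K562 genes. There, CHD9 differed between the hairpins by -0.13 (SE 0.17, adjusted p = 0.702 by edgeR). It stood at 255 and 245 CPM with hairpin 1, 213 and 336 with hairpin 2 and 635 and 649 in shLuc. The hairpin 2 libraries thus lay on either side of hairpin 1. In SNB19, 75 genes were higher with hairpin 1 and 62 with hairpin 2 among 8758 tested. These counts moved with single libraries, to 49 and 39 without hairpin 1 replicate 1, to 46 and 30 without hairpin 1 replicate 2, and to 149 and 122 without hairpin 2 replicate 1. Without hairpin 2 replicate 2 the first count was 131. Of the 7344 genes tested in both lines, 47 (0.640%) and 27 (0.368%) were called in SNB19, against 7 and 7 of the 135 K562 genes higher with hairpin 1 and 1 and 2 of the 71 higher with hairpin 2.

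Of the genes higher with hairpin 1 in K562, 135 were tested in SNB19, and 80 (59.3%) had a positive log2 difference, beside 48.9% of all genes tested in both lines. At an adjusted p under 0.05 in SNB19, 17 were higher with hairpin 1 and 20 were lower, which are 12.6% and 14.8%, beside 3.05% and 3.27% of all genes tested in both lines. Of the genes higher with hairpin 2 in K562, 71 were tested in SNB19, and 43 (60.6%) were negative, beside 51.1% of all. At the adjusted p 10 (14.1%) were lower with hairpin 1 and 3 (4.23%) higher. By sign alone the shares that kept their direction were close, 59.3% and 60.6%. At the adjusted p they were not, with 17 kept and 20 turned in the first set and 10 kept and 3 turned in the second. The difference between the sets was not tested.

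A test of the difference between the lines, fitted over 12 libraries, called 210 of 10671 genes (1.97%). This test reuses the K562 values by which the genes below were called, so its p-values for them are not independent of that choice. THBS1 had the largest contrast among the named protein-coding genes with counts in every group. In SNB19 it stood at 832 and 843 CPM with hairpin 1, 2156 and 2003 with hairpin 2 and 1499 and 1517 in shLuc, so that hairpin 1 was lowest, and the difference between the lines was 5.39 on the log2 scale (adjusted p = 1.75e-16). MME turned in the same way, with a log2 difference of -0.68 in SNB19 and 2.85 in K562, and so did ITGB3, with -0.90 and 1.39. TRANK1 turned the other way, 1.08 in SNB19 and -1.53 in K562.

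**Figure D4:**
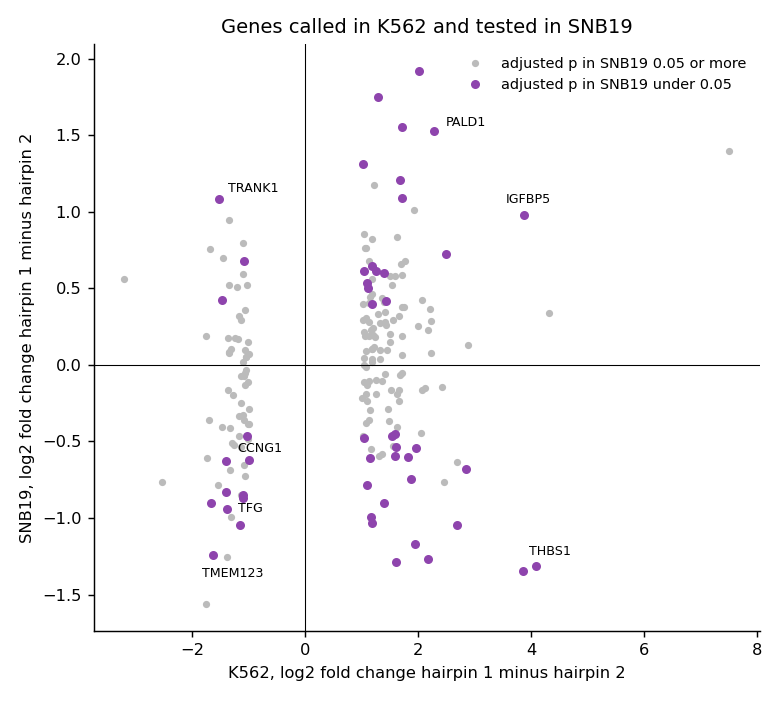
Log2 difference between hairpins in K562 (horizontal) and SNB19 (vertical) for the called K562 genes tested in both lines, colored where the adjusted p in SNB19 was under 0.05. On the right the colored points lie on both sides of 0, 17 above and 20 below, and on the left 10 lie below 0 and 3 above.

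The 10 genes that were lower with hairpin 1 in both lines were TMEM123, CCNG1, TFG, TMEM135, CASC4, RTN3, NEK7 and, named after their values were seen, GULP1, C17orf58 and TMPRSS5. TMEM123 in SNB19 had 131 and 121 CPM with hairpin 1, 263 and 335 with hairpin 2 and 364 and 372 in shLuc, a log2 difference of -1.24 (adjusted p = 0.000222). TFG had 110 and 102, then 214 and 193, with 184 and 190 in shLuc. For CCNG1, at 109 and 106 with hairpin 1 and 172 and 160 with hairpin 2, shLuc at 118 and 116 lay near hairpin 1 instead, unlike in K562. The difference between the lines was not past the threshold for TMEM123 (-0.40, adjusted p = 0.0965) or CASC4 (-0.25, adjusted p = 0.358), which does not show that the lines respond alike. By the same edgeR test it passed the adjusted p alone, with the larger change in K562, for CCNG1 (-0.79, adjusted p = 0.000323) and TMEM135 (-0.79, adjusted p = 0.00428). So it did for RTN3 (-0.58, adjusted p = 0.00558) and TFG (-0.46, adjusted p = 0.0364), but not for the other genes of the 10.

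The 3′UTRs of the tested genes were searched on the transcript strand for each 7-base stretch of the hairpin sites and of their reverse complements. A 3′UTR was taken from the GENCODE v29 transcript with the longest coding sequence, which gave 6513 tested genes. For the positions in capitals above, 576 genes held the hairpin 1 letters ACTAATA and 697 the hairpin 2 letters GCATATT. Their median log2 difference between the hairpins was shifted against genes without the letters by -0.03 and -0.005 in K562, and by -0.08 and -0.04 in SNB19. Both shifts were small in K562.

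A larger shift lay at the neighboring positions 12 to 18 of the hairpin 1 site, whose letters are GTACTAA and which pair with bases 2 to 8 of a guide that starts opposite position 19. This stretch was chosen after the values of all 15 stretches of each site, and of those of its reverse complement, were seen. The 407 genes with GTACTAA in the 3′UTR (6.25%) had a median log2 difference of -0.12, against 0.03 in the 6106 genes without it. In the SNB19 libraries the medians were -0.17 and -0.007. The log2 difference was negative in 66.1% of the genes with the letters and in 46.3% of those without in K562, and in 73.4% and 51.3% in SNB19. Against shLuc in K562 the median of the genes with the letters was -0.14 with hairpin 1 and 0.03 with hairpin 2. In SNB19 these medians were -0.25 and -0.08, beside 0.04 and 0.04 in genes without the letters, a shift of -0.29 with hairpin 1. For stretches of the hairpin 2 site the same shift, hairpin 1 against shLuc in SNB19, ranged from -0.19 (positions 12 to 18) to 0.10 (positions 1 to 7). A negative shift against shLuc in SNB19 was thus not limited to GTACTAA.

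The genes with GTACTAA had longer 3′UTRs, with a median of 3154 bases against 876.5. Among 3′UTRs of intermediate length (median 1965 bases with the letters and 1693 without) the median log2 differences in K562 were -0.18 in 144 genes with the letters and 0.05 in 1949 without, and in SNB19 -0.19 and -0.002. With 2 or more matches, in 30 genes, the K562 median was -0.22, against -0.12 with 1 match, but the share of negative genes was 63.3% against 66.3%. Those 30 genes also had longer 3′UTRs, with a median of 5330.5 bases against 3098. Stretches that start at neighboring positions share letters: positions 11 to 17 gave shifts of -0.13 and -0.14, but in 49 genes, and positions 13 to 19 gave -0.05 and -0.11. Leaving out positions 11 to 18, the stretches found in at least 100 genes gave smaller shifts. Those of hairpin 1 gave shifts between -0.05 and 0.05 in K562 and those of hairpin 2 between -0.02 and 0.06. In SNB19 the ranges were wider for hairpin 1, -0.11 to 0.07, and were -0.04 to 0.06 for hairpin 2. The reverse complement of the hairpin 1 site gave -0.04 to 0.07 in K562 and -0.07 to 0.09 in SNB19. That of the hairpin 2 site gave -0.03 to 0.04 and -0.06 to 0.09.

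**Figure D5:**
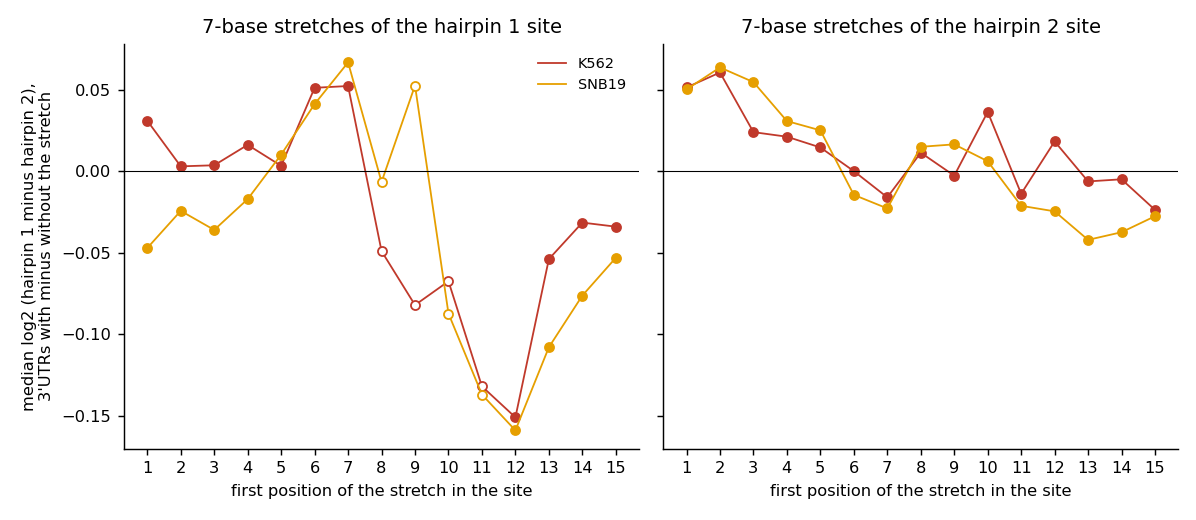
Shift of the median log2 difference (hairpin 1 minus hairpin 2) between genes with and without a 7-base stretch of the target site in the 3′UTR, by the first position of the stretch, for the hairpin 1 site (left) and the hairpin 2 site (right) in K562 (red) and SNB19 (orange). Open circles are stretches found in under 100 genes. The lowest filled points are at position 12 of the hairpin 1 site in both lines, at -0.15 and -0.16, and no stretch of the hairpin 2 site goes below -0.05.

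The letters were also counted in the called genes, as a description, since the stretch was chosen on the same differences between the hairpins. Of the genes higher with hairpin 2 that have an annotated 3′UTR, 11 of 63 (17.5%) held GTACTAA, and of those higher with hairpin 1, 10 of 165 (6.06%), THBS1 and PHLDA1 among them. Of the 10 genes lower with hairpin 1 in both lines, 7 held it, beside 6.25% of all tested 3′UTRs. Those 10 genes had longer 3′UTRs, with a median of 1518 bases against 970 over all tested. CASC4 and C17orf58 held 2 matches each, of which 1 is shown. The matching stretches are printed as 21 bases of the transcript in the alignment of the hairpin 1 site, with GTACTAA in capitals. They lie in GRCh38 at chr11:102396831-102396851 (minus strand), chr3:100748868-100748888 (plus), chr5:163444964-163444984 (plus), chr11:87322011-87322031 (plus), chr15:44414644-44414664 (plus), chr2:188595697-188595717 (plus) and chr17:67991366-67991386 (minus), in the order below.
TMEM123: ccactttttaaGTACTAAgtc
TFG: attaacatgatGTACTAAagt
CCNG1: attatgttttaGTACTAAggg
TMEM135: agtgaacctatGTACTAAtgg
CASC4: ctttttcagaaGTACTAAata
GULP1: aacacaatggaGTACTAAgat
C17orf58: atacttaaagaGTACTAAagg

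Outside the capitals these stretches share few letters with the hairpin 1 site: 12 of 21 positions in all were identical in TMEM135 and GULP1, 10 in CASC4 and C17orf58, 9 in CCNG1 and 8 in TMEM123 and TFG. RTN3, NEK7 and TMPRSS5 held no GTACTAA in the 3′UTR used. A match is a description of the letters, and binding of a guide was not measured. Of the genes higher with hairpin 1 in both lines that have a 3′UTR, 3 of 14 (21.4%) held the hairpin 2 letters GCATATT, IGFBP5 and FAM3C among them, beside 10.7% of all tested 3′UTRs. Of all genes higher with hairpin 1 in K562, 21 of 165 (12.7%) held these letters.

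IGFBP5 and FAM3C, the latter named after its values were seen, were higher with hairpin 1 in both lines. FAM3C, a secreted cytokine-like protein, had 80.3 and 76.3 CPM with hairpin 1 and 39.5 and 37.6 with hairpin 2, with 39.3 and 46.2 in shLuc. In K562, shLuc was thus near hairpin 2. In SNB19, FAM3C was at 236 and 235 CPM with hairpin 1, 82.7 and 107 with hairpin 2 and 271 and 282 in shLuc, so there hairpin 2 alone was low. IGFBP5 in SNB19 had another order, with 729 and 797 CPM with hairpin 1, 427 and 349 with hairpin 2 and 277 and 271 in shLuc, so that hairpin 2 was above shLuc.

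The differences between the hairpins were spread over the genome. The median log2 difference of a nuclear chromosome lay between -0.16 on chromosome 21, where 68 genes were tested and 3 were called, and 0.06 on chromosome 22, and that of the mitochondrial chromosome was 0.17, with 16 genes tested and none called. Chromosome 21 had -0.06 between the libraries numbered 1 and -0.13 between those numbered 2. Chromosome 11 held the most genes higher with hairpin 1, 22 of 526, and chromosome 13 held 1 called gene among 162 tested. Over all tested genes 2.41% were called higher with hairpin 1 and 1.61% higher with hairpin 2. These chromosomes were picked as the extremes of the nuclear ones, and their counts were not tested.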

How the data were processed

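RNA-seq libraries of K562 cells with hairpin 1, hairpin 2 or shLuc (2 each) were analysed, with the 6 SNB19 libraries of the same hairpins. The authors aligned reads to hg37 with TopHat and deposited raw counts per Ensembl gene made with HTSeq-count (TopHat2 2.1 and HTSeq 0.5.3 in the submitters' processing notes); the deposited counts are whole numbers without normalization. 0 columns belonged to other samples. Groups follow the sample titles.

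In R 4.3.3, counts were filtered with filterByExpr, scaled by TMM and tested with edgeR 4.0.16 (quasi-likelihood F-test, Benjamini-Hochberg adjustment over all tested genes) in 1 fit per line, or 1 fit over both lines for their difference. CPM refer to counts in tested genes, summed marker levels to all counts. Calls required an adjusted p under 0.05 and a log2 fold change beyond 1. SEs are the fold change divided by the square root of F. Names and 3′UTRs came from GENCODE v29 (GRCh38), whose build differs from hg37, so no position was joined to the files. The scripts were tested on simulated data.

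Named genes are the CHD family, 12 called genes per direction by p-value, 5 by fold change at a mean of at least 1 CPM, called list members (at most 4 per direction, else the 2 smallest p-values) and genes named by the study, APLNR and BIN1 among them. A few genes that these rules name are not reported here. Members and lists were chosen with earlier results of these data known. Alternatives were DESeq2 1.42.0, its size factors, other filters, the hairpin libraries alone, a replicate block and leaving out each library.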

Additional observations from a re-analysis of the deposited data

Results flagged for a closer look

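For some of the named genes the difference between the hairpins was not the same in K562 and in SNB19, by the edgeR quasi-likelihood test of the difference between the lines (K562 minus SNB19, log2 scale). With a higher value in K562 these were DMBT1 at 6.05, THBS1 at 5.39, MME at 3.51, SP6 at 3.21, IGFBP5 at 2.88, EGR2 at 2.39, ITGB3 at 2.28, AQP3 at 1.76, ITGA3 at 1.74, NR4A1 at 1.71, RDX at 1.08 and PHLDA1 at 1.01. With a lower value in K562 they were AL591767.3 at -6.20, CSGALNACT1 at -3.78, TRANK1 at -2.62, SERPINF1 at -1.88, ATG16L2 at -1.51, AKNA at -1.43, PRTN3 at -1.43, TMCC2 at -1.36 and CTSS at -1.14. DMBT1 has libraries at 0 in K562, so its fitted value depends on the prior count. EGR2 and AL591767.3 had too few counts to be tested in SNB19 alone. The K562 difference of AL591767.3 was -2.03, so its value of -6.20 rests largely on SNB19 libraries with few counts. SP6 and AQP3 were near 1 to 3 CPM in SNB19, whereas THBS1, IGFBP5, ITGA3, RDX and PHLDA1 were above 300 CPM in the hairpin libraries of that line. These genes were named for their K562 values, which the test reuses. The cause of these differences was not tested.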

How the results depend on the processing

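The genes higher with hairpin 1 and with hairpin 2 numbered 112 and 68 by DESeq2 and 1398 and 1347 at the adjusted p alone. Leaving out 1 library gave 156 to 275 and 88 to 185. The other scaling and filters, and the 4 hairpin libraries alone, gave 172 to 305 and 132 to 163. The replicate numbers did not pair the libraries (correlations of deviations 0.0047 for the hairpins in K562 and 0.020 in SNB19). A fit with the replicate number as a block called 220 and 146 genes, and shared 359 with the fit without the block. CHD9 against shLuc with hairpin 1 was -0.990 without a filter and -0.997 with the block. Without 1 library it ranged from -1.21 to -0.77, and with hairpin 2 from -1.12 to -0.68. In SNB19 DESeq2 called 40 genes higher with hairpin 2, and leaving out 1 library gave 46 to 149 and 30 to 122. The difference between the lines held for 144 to 320 genes without 1 library, with 320 without SNB19 hairpin 2 replicate 2. The shift of genes with GTACTAA ranged from -0.163 to -0.146. The log2 value of APLNR, hairpin 1 against hairpin 2, ranged from -0.273 to 0.00603 without 1 library, turning without hairpin 2 replicate 2. Of the values of named genes, 22, in 10 genes, kept their direction and lost the call. Of the list medians 19 moved by more than the replicate spread. The cause was not tested. Low counts limit the genes under about 1 CPM, and 2 libraries per group limit every estimate of spread.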
